A study of Mus musculus with 23 samples.

Results

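The genes for chemokine ligands were followed in the livers of mice that had inhaled particles. They were all genes on the array whose listed symbol was Ccl, Cxcl, Cx3cl or Xcl with a number, 34 of the 16887 genes with a single symbol. Of 35 such features, 1 was taken per gene, the one with the highest mean log2 Cy5 plus Cy3 signal. This left out a further feature for Cx3cl1, which was present on 0 arrays; a feature listed for both Art3 and Cxcl10 was not counted, since it names more than 1 gene. Whole livers of female C57BL/6 mice were used, aged 12 to 13 weeks by the labels and somewhat younger by the study's methods. The mice were exposed by inhalation to filtered air (n = 8), to carbon black (CB, Printex 90, n = 8) or to diesel exhaust particles (DEP, NIST 2975, n = 7) at 20 mg/m3. The study's methods give 90 min of exposure per day on 4 consecutive days, and the labels give 90 minutes as the time after exposure, where the methods give a shorter time. Each liver was hybridised in Cy5 on an array of its own, against a universal mouse reference RNA in Cy3. The exposures ran in 3 rounds: air mice fell 2, 4 and 2 into the first, second and last round, CB mice 1, 6 and 1, and DEP mice 1, 2 and 4.

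Chemokines are small secreted proteins that bind G-protein-coupled receptors and direct the movement of leukocytes. Several, among them Cxcl1, Cxcl2, Cxcl10 and Ccl2, are switched on by NF-κB or by interferons within hours of an inflammatory stimulus, whereas others, such as Cxcl12 and Ccl19, are made continuously and place lymphocytes and other cells within tissues. In the liver they are made by hepatocytes, Kupffer cells, endothelium and stellate cells. Whole-liver RNA was measured, so fewer cells of a type and less RNA per cell cannot be told apart.

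Cxcl1 and Cxcl2 are neighbouring genes for neutrophil attractants, with start sites 12654 bases apart on chromosome 5, and Cxcl10, an interferon-induced attractant of T cells, lies on the same chromosome. Their promoters are shown because Cxcl1 varied widely between the livers while its neighbour was near the detection limit (below). Each stretch runs 5′ to 3′ in the gene's direction, from 250 bases before to 50 bases after the RefSeq start site (build GRCm38.p6). The coordinates are chr5:90890995-90891294 (plus strand) for Cxcl1, chr5:90903649-90903948 (plus strand) for Cxcl2 and chr5:92348840-92349139 (minus strand) for Cxcl10. Capitals mark matches, on either strand, to GGG followed by any 5 bases and CC, a loose form of the NF-κB site, or to GAAA followed by any 2 bases and GAAA, a loose form of the interferon-stimulated response element. The 2 motifs overlapped nowhere in these promoters.
Cxcl1: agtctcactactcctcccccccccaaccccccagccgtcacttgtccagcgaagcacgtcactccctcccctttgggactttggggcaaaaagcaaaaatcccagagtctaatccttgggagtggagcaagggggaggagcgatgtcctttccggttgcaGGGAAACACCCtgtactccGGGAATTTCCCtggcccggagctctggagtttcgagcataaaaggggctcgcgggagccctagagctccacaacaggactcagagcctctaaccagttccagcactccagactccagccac
Cxcl2: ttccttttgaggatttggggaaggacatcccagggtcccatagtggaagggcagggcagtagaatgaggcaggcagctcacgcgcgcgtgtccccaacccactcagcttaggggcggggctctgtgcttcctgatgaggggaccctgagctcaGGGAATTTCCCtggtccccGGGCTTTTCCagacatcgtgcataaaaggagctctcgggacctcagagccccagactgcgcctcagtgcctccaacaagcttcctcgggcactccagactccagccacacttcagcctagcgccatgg
Cxcl10: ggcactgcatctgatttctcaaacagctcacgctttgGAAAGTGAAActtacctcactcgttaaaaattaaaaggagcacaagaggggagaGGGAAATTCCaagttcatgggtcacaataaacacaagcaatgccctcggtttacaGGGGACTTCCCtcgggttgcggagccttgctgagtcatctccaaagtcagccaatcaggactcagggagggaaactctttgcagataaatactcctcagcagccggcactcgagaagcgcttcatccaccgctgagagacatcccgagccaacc
Cxcl1 had 2 marked stretches, Cxcl2 had 2 and Cxcl10 had 3. The first motif occurred in 50.8% of 32851 mouse promoters of the same length and in 13 of the 23 ligand promoters in the table, and the second in 3.44% and in 3 (Ccl19, Cxcl10 and Cxcl14). The longest run of capitals common to Cxcl1 and Cxcl2, GGGAATTTCCC, was looked for on either strand after it had been seen there. It occurred in 14 promoters (0.0426%), of which 2 were those of Cxcl1 and Cxcl2. These matches are letters in a sequence, and no binding was measured.

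A feature was flagged absent by the authors where its Cy5 signal lay below a limit set from negative control probes on that array. The highest signal flagged absent lay between 154 and 301 intensity units per array, the median Cy5 signal per array between 241 and 477, and 17.3 to 46.6% of all features were absent. The number of ligands present per array ran from 17 to 27 in air, from 18 to 28 in CB and from 16 to 25 in DEP livers. These ranges overlapped almost entirely. The hepatocyte genes Alb, Apoa1, Tat and Ttr were present on all 23 arrays, with Alb saturated on all of them.

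Of the 34 ligands, 22 were present on at least 12 arrays (64.7%, against 73.1% of all features), and 9 of these on all 23: Ccl2, Ccl9, Ccl19, Ccl27a, Cx3cl1, Cxcl1, Cxcl5, Cxcl9 and Cxcl12. The next 13 were Ccl5, Ccl6, Ccl24 and Cxcl16 on 22 arrays each, Ccl7, Ccl21c and Ccl28 on 21, Ccl3 on 20, Ccl20 on 19, Ccl4, Cxcl10 and Cxcl13 on 18, and Cxcl14 on 17. Another 8 were present on a minority, namely Ccl17 and Cxcl17 on 9 arrays, Ccl1 and Ccl12 on 8, Cxcl2 on 7, Ccl8 and Cxcl11 on 4, and Cxcl15 on 2. Ccl11, Ccl22, Ccl25 and Xcl1, which attract eosinophils, T cells, thymocytes and T cells respectively, were present on 0 arrays (11.8% of ligands, against 4.74% of all features). No ligand spot was saturated in Cy5.

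**Figure D1:**
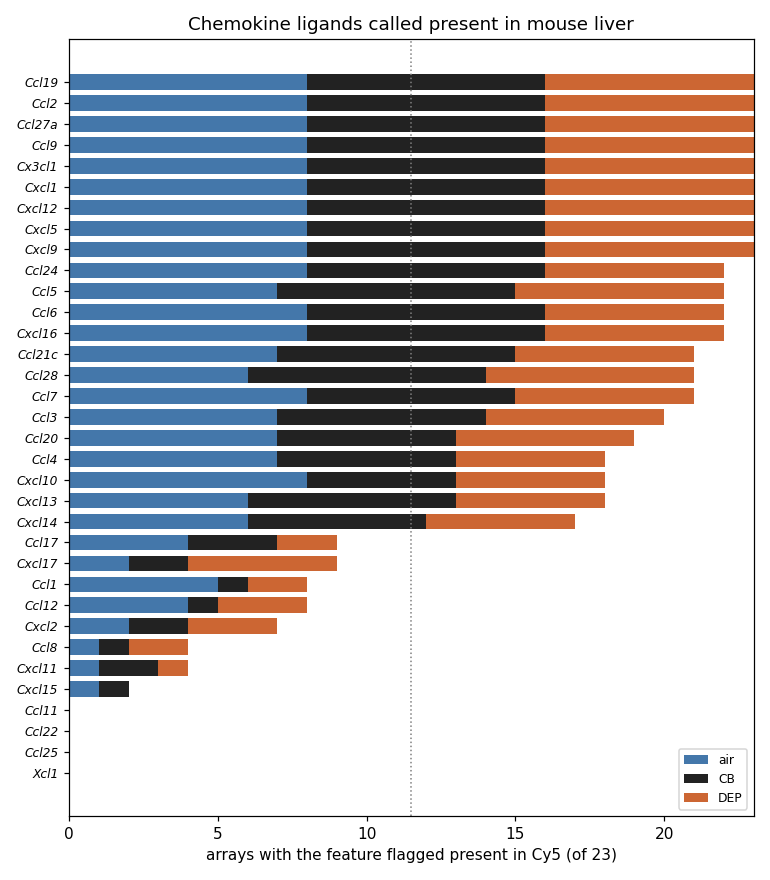
Number of the 23 arrays on which each of the 34 chemokine ligands was flagged present in Cy5 (x axis, arrays), stacked by air (8 arrays), CB (8) and DEP (7). The dotted line separates the 22 ligands present on at least 12 arrays from the 12 others, and 4 ligands have no bar.

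The levels below are loess-normalised log2 ratios of liver to reference for a single feature. They compare livers with each other, and since the dyes were never swapped their distance from 0 also holds any dye effect. For some ligands the reference spot was itself mostly flagged absent. It was present on 10 of the 23 arrays for Ccl6, on 6 for Cxcl9, on 6 for Cxcl13 and on 2 for Ccl21c. Their ratios divide by a signal near background on most arrays. For each group the lowest, the median and the highest value of its mice are given, in that order. Among the 22 ligands present on at least 12 arrays, 6 had a ratio above 0 on all 23 arrays, 8 below 0 on all of them, and 8 had both signs. The median Cy5 signals of Cxcl13 (255), Ccl4 (271.5), Ccl20 (275), Cxcl14 (286.5) and Ccl3 (298) lay below 301, the highest of the absence limits. That of Ccl7 was 327. The ratios of these ligands rest on a liver signal near the limit of detection.

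Of the CXC ligands that attract neutrophils, Cxcl1 and Cxcl5 were present on all arrays, and Cxcl2 and Cxcl15 on few. Cxcl1 was −2.32, −0.40 and 0.67 in air, −1.93, −0.99 and 0.41 in CB, and −3.18, −1.29 and −0.97 in DEP livers. All 3 ratios above 0 were from air or CB mice, and the lowest was from a DEP mouse, but 4 of the 7 DEP values lay inside the range of air. Cxcl5 was −1.44, −1.31 and −0.98 in air, −1.57, −1.38 and −1.02 in CB, and −1.55, −1.03 and −0.74 in DEP livers, a far narrower spread. Cxcl2, present on 2 air, 2 CB and 3 DEP arrays, was −0.19, 0.13 and 0.69 in air, −0.08, 0.07 and 0.50 in CB, and −0.29, 0.15 and 0.73 in DEP livers, near the limit of detection throughout. Cxcl15, a lung ligand, was present on 1 air and 1 CB array.

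The interferon-induced ligands Cxcl9, Cxcl10 and Cxcl11 share the receptor Cxcr3 on activated T cells. Cxcl9 was 1.29, 1.91 and 2.13 in air, 1.24, 1.94 and 2.76 in CB, and 1.01, 1.73 and 3.18 in DEP livers, with the highest value, in DEP mouse 51, above every other mouse. Cxcl10 was −1.24, −0.56 and −0.03 in air, −0.87, −0.62 and −0.36 in CB, and −1.12, −0.57 and 0.26 in DEP livers, and it was present on 8 air, 5 CB and 5 DEP arrays. DEP mouse 51 again held the top value, the only one above 0. Cxcl11 was present on 1 air, 2 CB and 1 DEP arrays.

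Cxcl12, the constitutive ligand of Cxcr4 that retains stem cells and lymphocytes in tissues, had the smallest SD of the ratio within groups among the present ligands. It was 0.78, 1.10 and 1.32 in air, 0.82, 0.98 and 1.16 in CB, and 0.79, 0.86 and 1.26 in DEP livers. Its Cy5 signal ran from 1221 to 37782 and its reference signal from 579 to 10160.5. Cxcl13, the B cell attractant, was −0.01, 0.37 and 0.81 in air, −0.23, 0.44 and 0.67 in CB, and −0.06, 0.43 and 1.68 in DEP livers. The 1.68, from DEP mouse 444, stood alone, and the DEP fold change of Cxcl13 went from 0.18 to −0.015 without that mouse. Cxcl14, an epithelial ligand, was −0.31, −0.01 and 0.28 in air, −0.28, −0.02 and 0.43 in CB, and −0.27, 0.01 and 0.56 in DEP livers. Cxcl16, which also serves as a scavenger receptor, was −0.09, 0.17 and 0.46 in air, −0.03, 0.19 and 0.44 in CB, and −0.35, 0.15 and 0.58 in DEP livers. Both were centred near the reference in all 3 groups. Cx3cl1 (fractalkine), a membrane-bound ligand for monocytes, was −3.35, −3.13 and −2.63 in air, −3.14, −2.76 and −2.65 in CB, and −3.28, −2.95 and −2.57 in DEP livers, below 0 in every mouse.

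Among the CC ligands for monocytes, Ccl2 (MCP-1) was −3.10, −2.68 and −2.30 in air, −3.04, −2.68 and −2.06 in CB, and −3.01, −2.62 and −2.47 in DEP livers. Its Cy5 signal was at least 1302.5 on each array, so it was well detected although below the reference in every mouse. Ccl7 (MCP-3) was −2.92, −2.28 and −1.51 in air, −2.37, −2.21 and −1.48 in CB, and −2.84, −1.96 and −1.78 in DEP livers. The group medians of both genes lay within the spread of each group. Ccl12 was present on 4 air, 1 CB and 3 DEP arrays, and Ccl8 on 1, 1 and 2.

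The macrophage inflammatory group held Ccl3, Ccl4, Ccl5, Ccl6 and Ccl9. Ccl3 (MIP-1α) was −4.06, −3.35 and −2.40 in air, −3.75, −3.01 and −2.63 in CB, and −3.39, −2.93 and −2.34 in DEP livers. The Cy5 signal of Ccl3 ran only from 209.5 to 523, while its reference signal ran from 995 to 6863. Ccl4 (MIP-1β) was −3.29, −2.81 and −2.23 in air, −3.03, −2.55 and −0.82 in CB, and −3.23, −2.79 and −1.85 in DEP livers. On the array of CB mouse 835436, which gave the −0.82, the Cy5 signal of Ccl4 was flagged absent at 156 and the reference signal was 187, against a median of 1666.25 on the other arrays. That ratio therefore came from a spot dim in both dyes, and the CB fold change of Ccl4 fell from 0.42 to 0.20 without this mouse. Ccl5 (RANTES), a T cell and monocyte attractant, was −2.15, −2.04 and −1.62 in air, −2.14, −1.91 and −1.65 in CB, and −2.15, −2.0 and −1.77 in DEP livers. Ccl9, which the mouse makes in myeloid cells, was 1.69, 2.15 and 2.42 in air, 1.63, 1.82 and 2.0 in CB, and 1.28, 2.16 and 2.32 in DEP livers. All 8 CB values of Ccl9 lay below the air median, while 3 DEP mice lay below both other groups and the DEP median was level with that of air.

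Of the lymphoid and epithelial CC ligands, Ccl19, a homing signal read by Ccr7, was 0.86, 1.06 and 1.61 in air, 0.72, 1.10 and 1.62 in CB, and 0.54, 0.84 and 1.61 in DEP livers. Ccl27a, a ligand for skin-homing T cells, was 1.05, 2.17 and 2.80 in air, 1.20, 2.20 and 2.68 in CB, and 1.96, 2.4 and 2.82 in DEP livers. Ccl28, a mucosal ligand, was −0.02, 0.25 and 0.50 in air, −0.15, 0.17 and 0.61 in CB, and 0.09, 0.47 and 0.70 in DEP livers. For all 3 genes the groups overlapped. Ccl20, which attracts dendritic cells and Th17 cells through Ccr6, was 0.09, 0.35 and 0.64 in air, −0.26, 0.09 and 0.45 in CB, and 0.10, 0.20 and 0.89 in DEP livers, and 3 CB values lay below 0, of which 2 came from spots flagged absent. The eotaxin Ccl24 was −1.51, −1.29 and −1.01 in air, −1.55, −1.32 and −1.04 in CB, and −1.61, −1.18 and −1.07 in DEP livers. Ccl17 was present on 4 air, 3 CB and 2 DEP arrays.

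**Figure D2:**
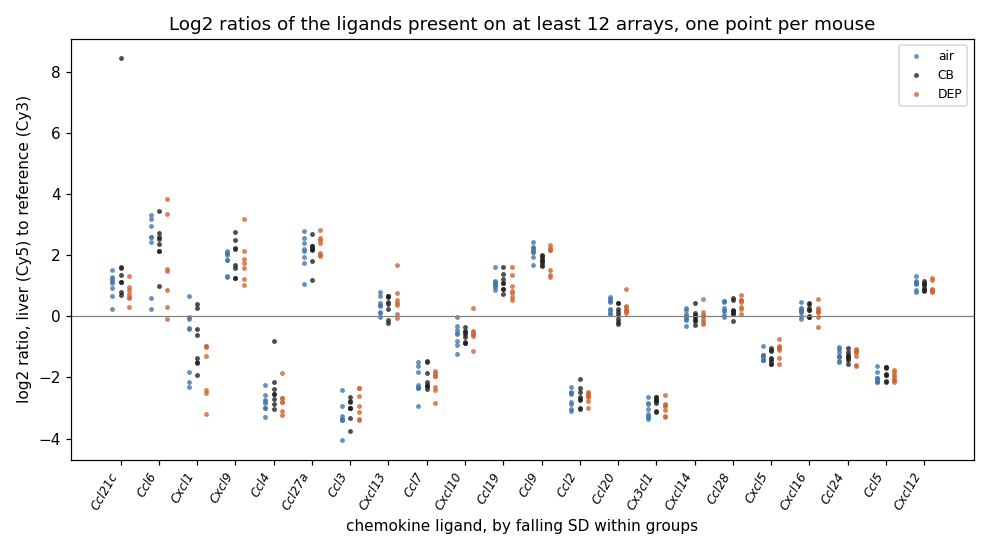
Log2 ratio of liver (Cy5) to reference (Cy3) on the y axis for the 22 chemokine ligands present on at least 12 arrays, each mouse a point (8 breathing air, 8 given CB and 7 given DEP) and the ligands ordered by falling SD within groups. Ccl21c reaches 8.45 in a single CB mouse, and the 3 groups overlap for every ligand.

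Some ligands varied far more than others between mice of the same group. The SD within groups exceeded the 90th percentile of all features (0.434) for 7 of the 34 ligands (20.6%, against 10% of all features): Ccl21c (1.56), Ccl6 (1.14), Cxcl1 (0.98), Ccl1 (0.58), Cxcl9 (0.55), Ccl4 (0.51) and Ccl27a (0.45). The median SD was 0.32 over the ligands and 0.243 over all features. At the other end stood Cxcl12 (0.16), Ccl5 (0.18) and Ccl24 (0.18). Ccl21c, Ccl6, Cxcl1 and Ccl1 were also above that percentile with the deposited ratios and with the Cy5 signal alone. Cxcl9 and Ccl4 were below it with the Cy5 signal alone, and Ccl27a with the deposited ratios. Cxcl12, the least variable present ligand as a ratio, was above it with the Cy5 signal alone, as was Cxcl17. Ccl3 and Ccl7 were above it with the deposited ratios.

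The spread of Ccl21c, a ligand by which lymphatic endothelium attracts T cells and dendritic cells, came from 1 liver. The ratio was 0.24, 1.13 and 1.52 in air, 0.69, 1.24 and 8.45 in CB, and 0.30, 0.71 and 1.33 in DEP livers. In CB mouse 835052 the Cy5 signal was 44437, against a median of 385.5 on the other arrays, with the reference at 144.5. The next highest CB ratio was 1.62. On the same array 6 features lay more than 5 log2 units from their median over the 23 arrays (0 to 5 on the others). Besides Ccl21c they were U2af2, Nfkb2, Lynx1 and Ctla4, all high, and Ces1d, a liver carboxylesterase, which read 269.5 in Cy5 where the median of the other arrays was saturated. The 10 lymphocyte markers averaged −0.16 in this liver (−0.41 to 0.14 in the others), and Ccl19 was at its lowest CB value, 0.72. The part of the array in this value was not tested. The CB fold change of Ccl21c was 1.08 with this mouse and 0.17 without it. Ccl21c also has near-identical gene copies that a probe may not separate, and Ccl27a has copies as well. Whether the probes separate them could not be checked here.

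Ccl6, a chemokine of mouse macrophages and neutrophils, was 0.25, 2.59 and 3.32 in air, 0.99, 2.45 and 3.43 in CB, and −0.10, 1.49 and 3.84 in DEP livers. Its low values, under 1, came from air mice 54 and 835433, CB mouse 59, and DEP mice 57, 835434 and 835435, so they occurred in all 3 groups. On the array of DEP mouse 57 the reference signal of Ccl6 was 1266.5, against at most 265 on the other 22 arrays, with Cy5 at 2469. The other low ratios went with Cy5 signals of 196 to 631.5. Cxcl9, described above, spread from 1.01 to 3.18, and its ratio rose with the SD of all log2 ratios on the array (r = 0.80, n = 23).

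**Figure D3:**
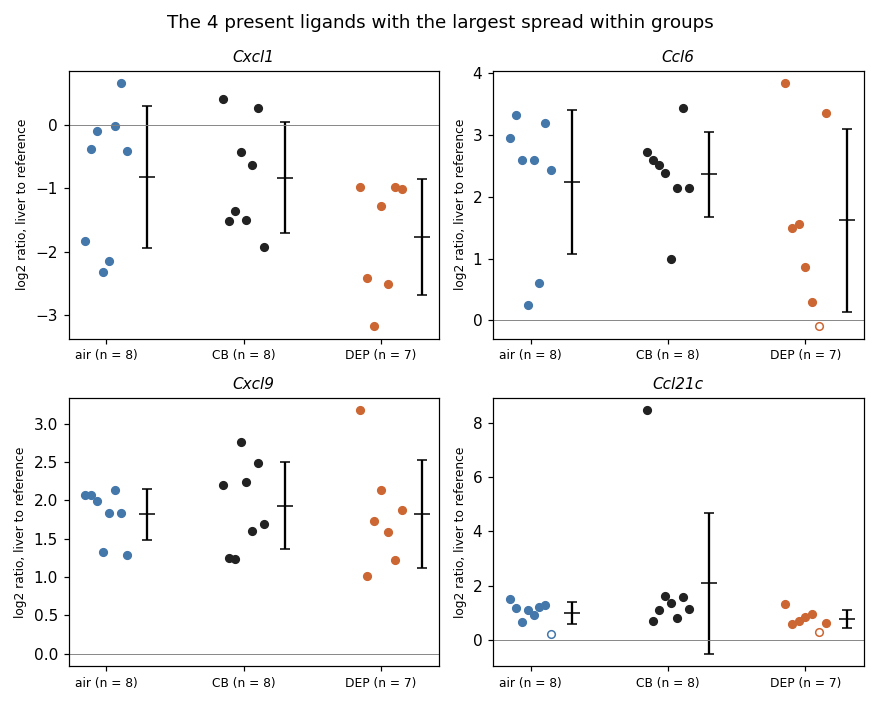
Log2 ratio of liver to reference (y axis) for the 4 present ligands with the largest SD within groups, 1 point per mouse, with the mean and SD to the right of each group and open points where Cy5 was flagged absent. Cxcl1 and Ccl6 spread over more than 3 log2 units, and the spread of Ccl21c comes from 1 CB mouse at 8.45.

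Ccl1 and Cxcl17, each absent on most arrays, were bright on a few of them in both dyes. Ccl1, a T cell ligand, gave Cy5 and Cy3 signals of 1936.5 and 1465 in air mouse 54, 2392 and 881.5 in CB mouse 59, 1062.5 and 278 in DEP mouse 835435, and 951 and 475.5 in air mouse 442, against Cy5 signals of at most 367 on the other arrays. Cxcl17, a mucosal ligand, gave 3391.5 and 1159 in DEP mouse 55, 2656 and 1544 in DEP mouse 56, 1262.5 and 452 in DEP mouse 835434, and 776 and 258 in DEP mouse 57. On the other 19 arrays its Cy5 signal was at most 418. The Cy3 channel held the same reference RNA on each array, and it moved with Cy5 for both spots (r of the log2 signals 0.90 for Ccl1 and 0.95 for Cxcl17, n = 23). What made the reference signal vary was not tested.

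The comparison of particles with air asked whether inhaled CB or DEP changed these genes in the liver. After CB, 0 of the 34 ligands passed an adjusted p of 0.05 in limma, as did 0 of 18688 features (0%). At an unadjusted p under 0.05 there was 1 ligand (2.94%), against 5.94% of all features. The median log2 fold change was 0.01 over the ligands and 0.00 over all features, and 20 ligands were above 0 and 14 below. After DEP, 0 ligands passed, beside 0% of features. At an unadjusted p under 0.05 there were 2 ligands (5.88%), against 4.82% of all features. The ligands' median was 0.03, with 20 above 0 and 14 below. Both shares were near those of all features. Between CB and DEP 0 ligands passed (0% of features), and 1 had an unadjusted p under 0.05 (2.94%, against 3.44%). With both particle groups set against air the counts were again 0 (0%) and 1 (2.94%, against 6.04%).

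Cxcl1, Cxcl2, Cxcl10 and Ccl2, ligands often used as signs of inflammation, did not pass the threshold after either particle. After CB the log2 fold changes were −0.02 for Cxcl1 (SE 0.44, limma adjusted p = 0.997), −0.09 for Cxcl2 (SE 0.14, adjusted p = 0.956), −0.03 for Cxcl10 (SE 0.16, adjusted p = 0.989) and 0.08 for Ccl2 (SE 0.13, adjusted p = 0.957). After DEP they were −0.03 for Cxcl2 (SE 0.15), 0.10 for Cxcl10 (SE 0.16) and 0.05 for Ccl2 (SE 0.14), each with a limma adjusted p of 0.997. The 95% intervals for Ccl2 were −0.20 to 0.35 after CB and −0.24 to 0.33 after DEP. For Cxcl10 they were −0.36 to 0.30 and −0.24 to 0.43. Cxcl1 was less precisely measured, with an interval of −0.93 to 0.89 after CB. The signs of several of these small values turned with the scaling, as the section on processing lists.

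Cxcl1 was lower after DEP by 0.95 on the log2 scale in the means (−0.82 ± 1.12, SD, n = 8 in air and −1.76 ± 0.92, n = 7 in DEP). The 95% interval ran from −1.89 to −0.01, with a limma unadjusted p of 0.0489 and an adjusted p of 0.997. In the second round alone the difference was −1.13 (SE 0.81) and in the last round alone −0.35 (SE 0.60), the same sign in both but within 2 SE of 0. The second round held 4 air and 2 DEP mice and the last 2 air and 4 DEP mice. Leaving out single mice moved it between −1.16 and −0.71.

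The smallest p-value of any ligand after DEP belonged to Cxcl17, at 0.59 (SE 0.20, limma unadjusted p = 0.00554, adjusted p = 0.997). The 4 bright spots described above were all from DEP mice. The value was 1.78 with the Cy5 signal alone, where the reference is not divided out, and 0.33 (SE 0.21) without the 3 DEP mice whose Cy3 spot was brighter than in every air and CB mouse. Ccl3 was higher by 0.39 (SE 0.21, adjusted p = 0.997) and Ccl9 stood at −0.26 (SE 0.15, adjusted p = 0.997). For Ccl3 the difference was 0.96 (SE 0.37) in the second round, which held 2 DEP mice, and 0.18 (SE 0.23) in the last, which held 2 air mice. With the Cy5 signal alone the sign of Ccl3 turned to −0.069.

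After CB the 4 ligands with the smallest p-values were Ccl9 at −0.29 (SE 0.14, adjusted p = 0.838), Ccl20 at −0.25 (SE 0.12, adjusted p = 0.841), Cx3cl1 at 0.24 (SE 0.12, adjusted p = 0.847) and Ccl4 at 0.42 (SE 0.23, adjusted p = 0.873), all from limma. Ccl20 and Cx3cl1 differed more in the second round alone, by −0.42 (SE 0.15) and 0.40 (SE 0.13). Ccl9 gave −0.23 (SE 0.17) there, and −0.65 over all mice under median centring (adjusted p = 0.0521 in limma), which moved the median of all features by −0.11. With only 1 CB mouse in the last round, its values are those of a single liver. Over the 22 ligands present on at least 12 arrays, the 95% interval lay within 1 log2 unit of 0 for 20 after CB and for 19 after DEP, so changes of 2-fold or more fell outside those intervals. For Ccl21c and Ccl6 the intervals were wider in both comparisons, and for Cxcl1 after DEP.

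**Figure D4:**
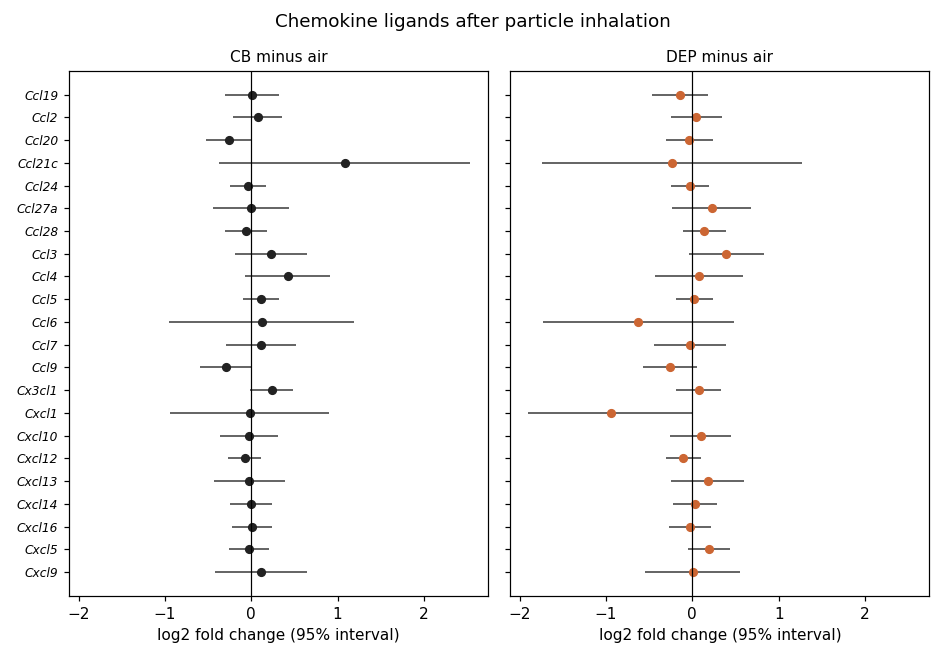
Log2 fold change (x axis) with 95% interval for the 22 ligands present on at least 12 arrays, CB minus air on the left and DEP minus air on the right. Most intervals span 0 and lie within 1 log2 unit of it, and those of Ccl21c, Ccl6 and Cxcl1 are the widest.

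Between the 3 exposure rounds, with the group in the model, 0 ligands passed an adjusted p of 0.05 (0% of features). Unadjusted p-values under 0.05 were found for 3 ligands (8.82%), against 6.28% of all features. They were Cxcl2, with 0.51 more in the last than in the first round (limma adjusted p = 0.694), Ccl4 (0.42, adjusted p = 0.782) and Ccl28 (0.33, adjusted p = 0.774). The mice of array set 1 (array sets are defined below) were all from the last round, so round and set cannot be told apart there. These mice gave the highest Cxcl2 values (0.73, 0.69 and 0.63), in a gene present on 7 arrays, and the Ccl4 values of −0.82 and −1.85.

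The livers were next compared by Saa3, the gene of an acute phase protein, after each group's mean had been removed. Cxcl1 rose with Saa3 across the 23 mice (Pearson r = 0.77, permutation p = 4e-05, adjusted p = 0.00088 over the 22 ligands tested; Spearman rho = 0.77, permutation p = 5e-05, adjusted p = 0.0011). The relation was 0.75 in air, 0.91 in CB and 0.64 in DEP livers, and 0.75 without the 2 mice with Saa3 farthest from the median. It was 0.86 in the second round (n = 12, permutation p = 3e-04) and 0.53 in the last (n = 7, exact permutation p = 0.211), and the first round held only 4 mice. With round as a further term r was 0.80, and with array set 0.79. Of 16886 other genes, Saa3 had the highest r with Cxcl1, and Lcn2 (lipocalin 2, 0.74) and Hmox1 (haem oxygenase 1, 0.72) came in places 4 and 5, after Enpp6 (0.77, present on 0 arrays) and Vipr1 (0.76). The acute phase genes Orm1, Saa1 and Saa2 were also looked up and did not rank near Saa3. Orm1 was in place 1173 (r = 0.36), Saa1 in place 2017 (0.29) and Saa2 in place 14314 (−0.23). Within air, mice 442 and 53 had high values of both Cxcl1 and Saa3, and mice 54 and 49 low values of both. The neutrophil markers were 8 genes, of which only 3 were present on at least 12 arrays, and S100a9 varied most (SD within groups 0.82). Their mean had an r of 0.46 with Cxcl1, and the mean of the macrophage markers, over 7 genes, 0.33. The part of these markers in the relation was not tested.

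**Figure D5:**
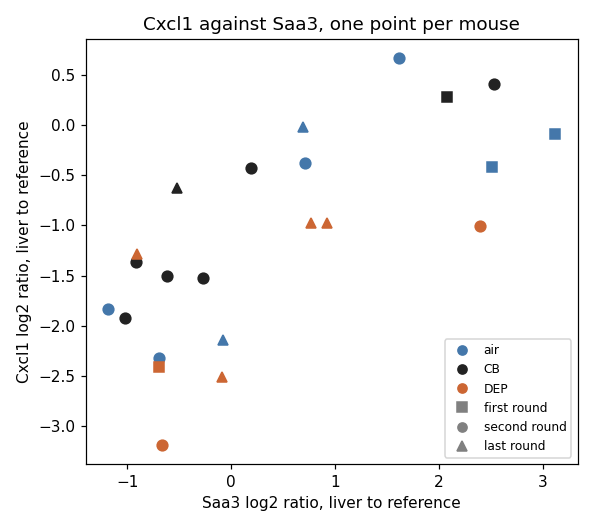
Cxcl1 log2 ratio (y axis) against Saa3 log2 ratio (x axis), 1 point per mouse, with colour for air, CB and DEP and symbol for the exposure round. High and low livers occur in all 3 groups, and Cxcl1 rises with Saa3 across them (r = 0.77 on values centred on group means, n = 23).

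Cxcl13 was the other ligand to pass, with r = 0.57 (permutation p = 0.00351, adjusted p = 0.0386; rho = 0.63, permutation p = 0.00158, adjusted p = 0.0174), 0.65 without the 2 farthest mice, 0.64 in the second round and 0.79 in the last. Within groups r was 0.42 in air, 0.41 in CB and 0.94 in DEP. Without DEP mouse 444, which had the highest Cxcl13, r over the other 22 mice was 0.47 (permutation p = 0.0296, adjusted p = 0.326), so the call rested on this mouse. It was also lost with the deposited ratios (adjusted p = 0.0618) and with the Cy5 signal alone (r = 0.40, adjusted p = 0.421). For Ccl6 r was 0.42 (adjusted p = 0.301), and for Ccl2 it was −0.40 (adjusted p = 0.301). Ccl2 therefore did not rise with Saa3 where Cxcl1 did.

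Among the 231 pairs of the 22 ligands, 7 had an adjusted p under 0.05 by permutation. An absolute r of at least 0.63, the smallest among these, was reached by 3.03% of the ligand pairs and by 1.31% of all pairs of the 13669 features present on at least 12 arrays. Cxcl5 and Cxcl9 moved in opposite directions (r = −0.81, rho = −0.69, adjusted p = 0.00231). Ccl6 rose with Cxcl12 (r = 0.71, rho = 0.69, adjusted p = 0.0254), and Cxcl12 with Cxcl13 (r = 0.65, rho = 0.55, adjusted p = 0.0305). Both relations with Cxcl12 had the same sign in the second round (0.68 and 0.75) and in the last (0.94 and 0.54). Without DEP mouse 444 the r of Cxcl12 with Cxcl13 was 0.54. Ccl2 and Ccl7 were opposed (r = −0.67, rho = −0.70, adjusted p = 0.026). The remaining 3 were Ccl4 with Ccl7 (0.65, rho = 0.71, adjusted p = 0.026), Ccl3 with Ccl5 (0.64, rho = 0.58, adjusted p = 0.0439) and Ccl19 with Cxcl9 (0.63, rho = 0.52, adjusted p = 0.0455). Ccl19 with Cxcl9 was 0.15 in the second round and 0.92 in the last, and for the other 4 pairs the sign was the same in both rounds, with absolute values from 0.56 to 0.88. Without the 2 mice farthest from the median of the first gene, r lay between 0.47 and 0.67 for the positive pairs and was −0.70 and −0.67 for the others. Several of these genes also moved with the SD of the array's log2 ratios, with r from 0.80 (Cxcl9) and 0.64 (Ccl19) to −0.66 (Ccl7 and Cxcl5) and −0.69 (Ccl4). Ccl3 and Ccl5 had r of −0.57 and −0.56 with it. With that SD as a further term, r was −0.61 for Cxcl5 and Cxcl9, 0.33 for Ccl4 and Ccl7, 0.45 for Ccl3 and Ccl5, and 0.20 for Ccl19 and Cxcl9. It was 0.68 for Ccl6 and Cxcl12, 0.61 for Cxcl12 and Cxcl13, and −0.70 for Ccl2 and Ccl7. In these pairs Ccl3, Ccl4, Ccl7 and Cxcl13 had liver signals near the absence limit (median Cy5 298, 271.5, 327 and 255). The part of the reference signal in their relations was not tested.

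The receptors and regulators of these ligands also gave 0 calls, but 0 of all 18688 features passed (0%), so no list could have held one. Of 21 chemokine receptor genes measured, 13 were present on at least 12 arrays, against 73.1% of all features. In either comparison with air 0 of them passed. Their medians were 0.03 after CB and −0.0016 after DEP. Ccr7, the receptor for Ccl19 and Ccl21, had the same size of difference in both comparisons, 0.42 (SE 0.18, adjusted p = 0.838) after CB and 0.41 (SE 0.19, adjusted p = 0.997) after DEP, and these share the air mice. Cx3cr1, the receptor for Cx3cl1, was at −0.26 after CB (SE 0.10, adjusted p = 0.827) and −0.21 after DEP (SE 0.10, adjusted p = 0.997). Of 10 upstream cytokine genes 0 passed. Il1b stood at 0.65 after CB (SE 0.25, adjusted p = 0.816) and 0.49 after DEP (SE 0.26, adjusted p = 0.997), whereas Tnf, present on 17 arrays, was at 0.02 and −0.17. Of 9 NF-κB feedback genes and 14 interferon response genes 0 passed, with Igtp, an interferon-induced GTPase, at −0.32 after CB (SE 0.12, adjusted p = 0.804) and −0.09 after DEP. Of the platelet chemokines with other names, Pf4 was at −0.09 after CB (SE 0.40) and 0.85 after DEP (SE 0.41, adjusted p = 0.997), and Ppbp at −0.01 and −0.04. Marker genes of macrophages (8 measured), neutrophils (8), lymphocytes (10), endothelium (7), stellate cells (6), hepatocytes (4), platelets (4) and pancreatic acinar cells (4) also gave 0 calls. Alb stood at −0.67 after DEP (SE 0.20, limma adjusted p = 0.997) on a spot that was saturated on all 23 arrays.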

How the data were processed

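RNA from 23 mouse livers was measured on 2-colour oligonucleotide arrays of 22575 features. The authors quantified spots after scanning, and the deposited files hold Cy5 (liver) and Cy3 (reference) intensity values without a background column, a log2 ratio that the authors made by lowess, and flags that mark signals below a limit from negative control probes, per the labels and the methods. The submitters' processing notes name R 2.4.1. A background correction before deposit is not given in the sources used here. The series-wide value table holds the same log2 ratios and was not used.

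The 18688 features with a listed gene were loess-normalised within arrays and fitted with limma 3.58.1 in R 4.3.3 on the 3 groups, with Benjamini-Hochberg adjustment over all features and a threshold of 0.05. The fit was tested on simulated data, where it recovered 93% of 100 changes of 1 and 63% of 100 changes of 0.5 on the log2 scale for CB minus air over 18688 features. Both sets of changes were planted at once, whereas 0 features passed in the data. They were drawn from all features, whose median SD (0.243) is below that of the ligands (0.32). The shares therefore do not measure how often such a change in a ligand would be found. Mice are the replicates, and each was on 1 array. Relations across mice used 100000 permutations on values centred on group means. The number of arrays limits the precision. Array sets are runs of consecutive slide numbers in the labels. Alternatives were the deposited ratios, median centring, Cy5 alone, normexp, a filter on presence, blocks for round, set and day, single rounds, array weights, the Fs test of the study with 100 residual shuffles, fitting the compared groups alone, and leaving out each mouse.

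The ligands, the other gene lists and the tests were chosen with earlier results of these data known. Genes named in full are the ligands present on at least 12 arrays with Cxcl1, Cxcl2, Cxcl10 and Ccl2, and the 4 smallest p-values in each comparison with air. Nfkb2, U2af2, Lynx1, Ctla4 and Ces1d were named after their values had been seen. Sequences come from RefSeq (GRCm38.p6), where 23 of the 34 ligands had a promoter.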

Additional observations from a re-analysis of the deposited data

Results flagged for a closer look

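The 22 ligands present on at least 12 arrays gave 66 sets of values, 1 for each group, and in 6 of them a single mouse lay far from the rest by Dixon's test at the 95% level. Chance would flag about 3.3. Ccl21c in CB mouse 835052 was at 8.45, with the next CB value at 1.62. Ccl4 was at −0.82 in CB mouse 835436 (next value −2.15), where Cy5 was flagged absent and the reference spot read 187, and at −1.85 in DEP mouse 835435 (next value −2.66), where the reference spot read 719.5 against a median of 1666.25 on the other arrays. Both arrays belong to array set 1. Ccl19 was at 1.61 in air mouse 50 (next value 1.17), Ccl20 at 0.89 in DEP mouse 57 (next value 0.35) and Cxcl5 at −0.98 in air mouse 443 (next value −1.25). The causes were not tested.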

How the results depend on the processing

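In each of the 4 comparisons and between rounds, 0 ligands passed under each alternative that was run, including each left-out mouse. The median fold change of the ligands moved by less than 0.079 throughout, the SD between single mice of the ligands' median centred ratio. That SD is larger than the medians themselves, so it is a loose measure. Leaving out 1 mouse moved the median between −0.0016 and 0.053 after CB and between −0.0069 and 0.059 after DEP, so its sign was not fixed. Median centring moved the median of all features after CB by −0.11 and turned Cxcl2 to 0.070, Ccl2 to −0.26 and Cx3cl1 to −0.062. Relative to that shift they were 0.17, −0.15 and 0.04. After DEP it turned Cxcl2 to 0.065 and Ccl2 to −0.086. It called 285 of all features after CB and 46 for both particles, where the loess values called 0. The last round alone held 1 CB mouse, so its counts of features for CB rest on a single liver and are left out. The Cy5 signal alone turned Cxcl2 to 0.021 and Ccl2 to −0.025 after CB, and Cxcl2 to 0.20, Cxcl10 to −0.059 and Ccl3 to −0.069 after DEP. With round as a block Cxcl1 after CB was 0.12, and with array weights Cxcl10 after CB was 0.028. The second round alone turned Cxcl2 after CB to 0.098, and after DEP Cxcl2 to 0.028, Cxcl10 to −0.058 and Ccl2 to −0.039. The last round alone, with its 1 CB mouse, turned Cxcl1 to 0.46 and Ccl2 to −0.13 after CB. None of these values had passed the threshold, and the causes were not tested. Leaving out 1 mouse moved Cxcl1 after CB between −0.23 and 0.19, Cxcl10 between −0.12 and 0.056 after CB and −0.034 and 0.20 after DEP, Ccl2 between −0.0060 and 0.13 after CB and −0.0091 and 0.11 after DEP, and Cxcl2 after DEP between −0.13 and 0.039. Cxcl13 after DEP was −0.015 without DEP mouse 444, chosen after seeing the data. Requiring presence on all 23 arrays left 9 ligands in place of 22. The ligands that followed Saa3 numbered 2, and 1 with the deposited ratios, with the Cy5 signal alone, within the second round or without DEP mouse 444. The r of Cxcl1 with Saa3 was 0.53 in the last round, where 7 mice limit the test, and between 0.74 and 0.82 when single mice were left out, an alternative added after seeing the data. Replicate numbers name single mice. No paired analysis was possible because the groups share no replicate number. Spots near the absence limit, such as Cxcl2, have ratios that say little about the liver. Similar caution applies to the present ligands with a median Cy5 signal below 301.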

Other observations

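Across the 23 mice, with group means removed, the genes most like Ccl6 were Golt1a (r = 0.84), Klhdc7a (0.81) and Atp9a (0.81), and those most like Cxcl9 were Adgrl4 (0.90), Tfpi2 (0.86) and Pdcd6 (0.86). The endothelial markers, averaged over 7 genes, had an r of 0.72 with Cxcl9, the neutrophil markers 0.58 and the macrophage markers 0.58. Only 3 of the 8 neutrophil genes were present on at least 12 arrays. Cxcl9 itself had an r of 0.80 with the SD of log2 ratios on the array. The genes most like Ccl21c, Samd8 (0.97), Ctla4 (0.96) and Ptprk (0.96), share the outlying CB mouse 835052.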
